A study of Mus musculus with 6 samples.

Results

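CHRNA10, LYNX1, SLC44A1 and SLC44A2, genes of acetylcholine and choline biology, were examined in KYSE30 cells with and without acetylcholine (ACh). They were chosen by name from the listed genes for an acetylcholine receptor subunit, a modulator of such receptors and choline transporters. They make up 4 of the 4195 genes in the deposited table. SLC44A5, a further listed gene of choline uptake, is not among the 4 and is reported further on. KYSE30 is an established human line grown from a squamous carcinoma of the esophagus. The labels give both groups as wild type (WT) and name a time of 4 h. The ACh group had been exposed to 100 uM ACh, and nothing is said of a vehicle in the Control group. Each group had 3 libraries. The labels do not say whether these were separate cultures. The p-values then cover only the spread between libraries, which may be technical. The comparison asked whether transcripts of these genes differed between stimulated and control cells.

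Acetylcholine acts on cells through muscarinic receptors, which couple to G proteins, and through nicotinic receptors, which are ion channels built from subunits. Epithelial cells, keratinocytes among them, are known to carry nicotinic receptors and to make acetylcholine outside the nervous system. CHRNA10 encodes a nicotinic subunit that assembles with the alpha 9 subunit into a channel permeable to calcium. LYNX1 encodes a small membrane-anchored protein of the Ly6 family that binds nicotinic receptors and dampens their response. SLC44A1 and SLC44A2 encode choline transporter-like proteins. Choline is the precursor of acetylcholine and, in far larger amounts, of the membrane lipid phosphatidylcholine.

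Values are read here as normalised read counts. All values of a library were whole multiples of 1 step, as they would be if its counts had been divided by 1 factor. The table holds only genes with an unadjusted p under 0.05 in the authors' own test. A gene outside it has no value here, and a gene inside it was selected for a difference. A gene is said to have risen or fallen only where limma on log2(value + 1), adjusted over the 4195 listed genes, and the authors' deposited adjusted p were both under 0.05. By this rule 3 of the 4 genes were called, against 63.8% of all listed genes (28.8% higher and 35% lower). By limma alone 4 of 4 passed, against 99.6% of the listed genes. The libraries of the 2 groups did not overlap for any of the 4 genes. That held for 93% of the listed genes, 44.6% with ACh higher and 48.3% with ACh lower. These shares do not set the 4 genes apart from the table.

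CHRNA10 was close to the bottom of the listed range and lower in ACh than in Control. The Control libraries gave 27.6, 20.3 and 22.3, and the ACh libraries gave 2.14, 7.92 and 16.8. Every ACh library was below every Control library, but the ACh libraries were spread widely, and the highest of them lay only 3.52 below the lowest Control library. The group means were 23.4 ± 3.80 in Control and 8.94 ± 7.37 in ACh (SD, n = 3 each). The SD was thus 16.2% of the mean in Control and 82.4% in ACh. The log2 fold change was -1.61 (SE 0.44, limma adjusted p = 0.0027 by the Benjamini-Hochberg method).

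The difference in CHRNA10 was not called, because the authors' deposited table gives it an adjusted p of 1. In all 234 listed genes carry that value. The unadjusted p of CHRNA10 in the authors' deposited table is 0.016, beside a log2 fold change of -1.38. SLC44A5, with a larger unadjusted p of 0.0397 there, has a lower adjusted p of 0.119. The adjusted p of CHRNA10 thus does not follow from the rank of its unadjusted p and may stand for a missing value. How it arose is not stated. The missing call is not a result against a difference. A step may be 1 read. In steps, CHRNA10 held 28, 20 and 29 in Control and 2, 7 and 16 in ACh. The size of the change therefore rests on small numbers. It was -0.943 on the log2 scale without ACh replicate 1 and -0.886 with 10 in place of 1 added to each value. Only 2.55% of the listed genes had a lower mean. In the quartile of listed genes with the lowest means, which also holds LYNX1, the median size of the log2 fold change was 0.33, the highest decile lay above 1.31, and 34.1% of genes were called. In the highest quartile, which holds SLC44A1 and SLC44A2, the median size was 0.15 and 82.6% were called.

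CHRNA10 (ENSG00000129749) lies on the minus strand of chromosome 11 from 3665587 to 3671384 in the file's coordinates, whose human build is not stated. NUP98, a nuclear pore gene on the same strand, shares 302 bases with it and was looked at for that reason after its values were seen. NUP98 gave 2492 ± 46.3 in Control and 2673 ± 41.2 in ACh (SD, n = 3 each), and its log2 fold change of 0.10 was not called. How reads in the shared stretch were assigned is not stated, and the CHRNA10 values are uncertain to that extent. The part of the overlap in them was not tested.

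LYNX1 fell. Control libraries held 381, 432 and 365 normalised counts of it, and ACh libraries 313, 284 and 355. The groups did not overlap, with 10.2 between ACh replicate 3 and Control replicate 3. The mean went from 393 ± 34.9 to 317 ± 35.9 (SD, n = 3 each). ACh thus stood at 0.807 times Control (log2 fold change -0.31, SE 0.09, limma adjusted p = 0.00477). In the authors' deposited table its adjusted p was 0.0439, close to the threshold. The gene (ENSG00000180155) lies on the minus strand of chromosome 8 from 142771197 to 142777810.

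The transporter gene SLC44A1 rose by a small amount. Control libraries gave 2643, 2478 and 2620.5 normalised counts and ACh libraries gave 2847, 2792 and 2872. Every ACh library was above every Control library, by at least 149. The mean went from 2581 ± 89.8 to 2837 ± 40.6 (SD, n = 3 each). That is 9.97% higher, or 0.14 on the log2 scale (SE 0.04, limma adjusted p = 0.00212). SLC44A1 (ENSG00000070214) lies on the plus strand of chromosome 9 from 105244622 to 105439171.

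The related gene SLC44A2 fell by a similar amount. Its Control libraries held 7149, 6803 and 6957 normalised counts and its ACh libraries 6385, 6082 and 6350. The lowest Control library was 419 above the highest ACh library. The mean went from 6970 ± 173 to 6272 ± 165 (SD, n = 3 each). ACh stood at 0.900 times Control (log2 fold change -0.15, SE 0.03, limma adjusted p = 0.00052). The call ended when libraries were scaled to equal totals over the listed genes (-0.072, limma adjusted p = 0.0646). SLC44A2 (ENSG00000129353) lies on the plus strand of chromosome 19 from 10602457 to 10644559.

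**Figure D1:**
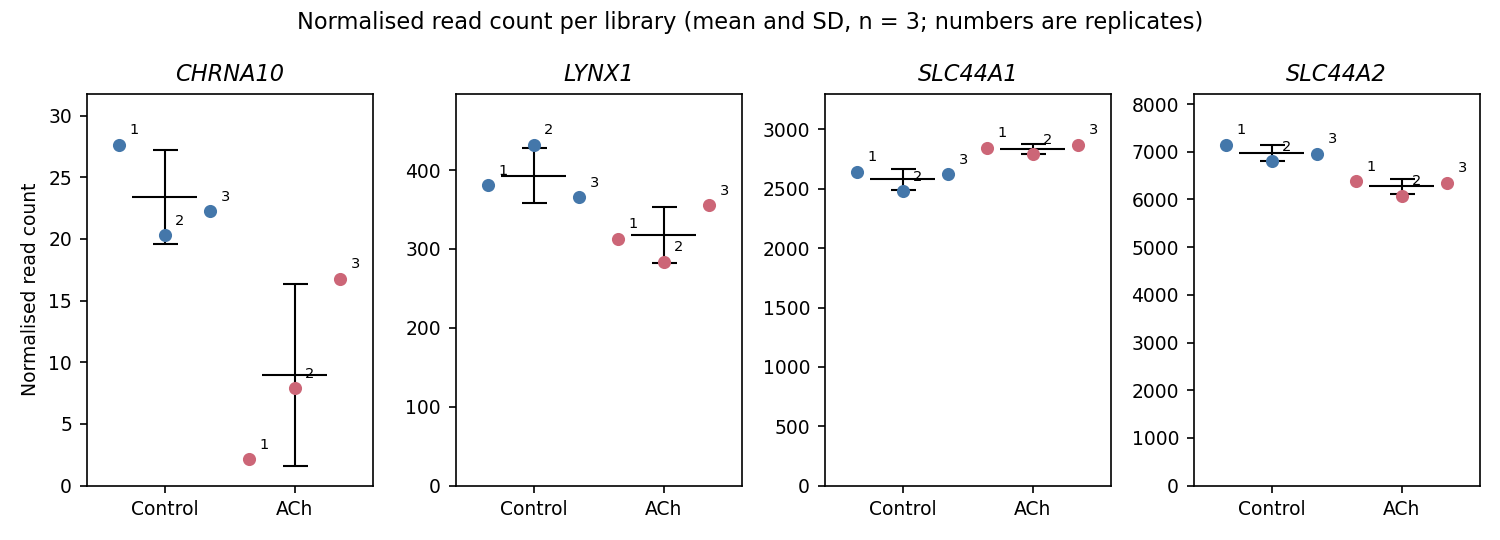
Normalised read count (y axis, from 0) of the 4 genes in each library, with the mean and SD of 3 libraries per group and the replicate number beside each point. The groups do not overlap in any panel; CHRNA10 is spread from 2.14 to 16.8 in ACh, while SLC44A1 is 9.97% higher in ACh and SLC44A2 stands at 0.900 times its Control level.

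SLC44A1 and SLC44A2 moved in opposite directions, and their ratio within a library does not depend on how libraries were scaled. SLC44A1 stood at 0.370, 0.364 and 0.377 of the normalised count of SLC44A2 in Control and at 0.446, 0.459 and 0.452 in ACh. The ratio was higher in all 3 ACh libraries. Its log2 went from -1.43 ± 0.02 to -1.14 ± 0.02 (SD, n = 3 each), a difference of 0.29. Since SLC44A1 was higher and SLC44A2 lower in every ACh library, the separation of the ratios follows from those values, and it is given with no test. With the trend on base composition described further on removed, the difference was -0.0445 and thus of the other sign.

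**Figure D2:**
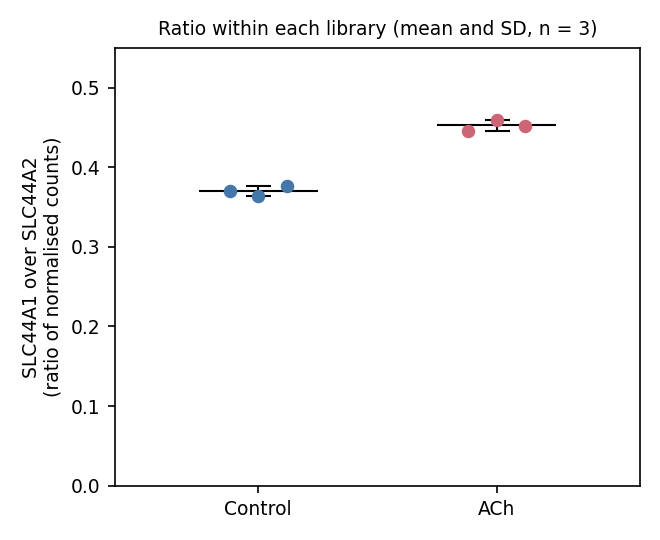
Ratio of the normalised counts of SLC44A1 and SLC44A2 in each library (points), with the mean and SD of 3 libraries per group; the y axis starts at 0. The ACh libraries lie between 0.446 and 0.459 and the Control libraries between 0.364 and 0.377.

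Levels of different genes were compared per kilobase of the length that the table gives. SLC44A2 was highest, with 1336 ± 33.2 normalised counts per kb in Control and 1203 ± 31.7 in ACh (SD, n = 3 each). SLC44A1 followed with 212 ± 7.37 and 233 ± 3.34, LYNX1 with 78.2 ± 6.96 and 63.2 ± 7.14, and CHRNA10 was lowest with 8.66 ± 1.41 and 3.31 ± 2.73 (SD, n = 3 each). No library broke this order. SLC44A2 stood 5.08 to 6.41 times above SLC44A1 per kb, and SLC44A1 2.37 to 4.06 times above LYNX1. LYNX1 stood 7.42 to 78.6 times above CHRNA10, a range set by the low CHRNA10 values in ACh. The order is a description, and the lengths assume that the same transcript forms were present in every library.

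Base composition moved with direction across the whole table and touched these genes too. No human sequence was used here, so GC content was read from mouse transcripts of matching symbol. Across the 3676 listed genes with such a value, Spearman's rho between GC content and log2 fold change was -0.76, given as a description since genes share libraries and are not independent replicates. SLC44A1 had a GC content of 41.7%, in the lowest quintile of the listed genes, of which 96.3% were higher in ACh. SLC44A2 had 52.7%, in the middle quintile, of which 42% were higher. CHRNA10 and LYNX1 had 55.1% and 55.9%, in the second highest quintile, of which 3.13% were higher.

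After removal of the GC trend within each library, CHRNA10 kept a log2 fold change of -1.43 (limma adjusted p = 0.0227). LYNX1 went to -0.12 (limma adjusted p = 0.402) and lost its call. SLC44A2 went to -0.03 (limma adjusted p = 0.648) and lost its call as well. SLC44A1 changed sign, to -0.07 (limma adjusted p = 0.202). None of the 4 genes was called by both criteria after this removal, against 9.6% of the listed genes with a GC value. CHRNA10 could not be, since its deposited adjusted p does not change with the removal. By limma alone 1 of the 4 passed, CHRNA10, against 15.2% after and 99.6% before the removal. This pass is by adjustment over the 3676 listed genes with a GC value, all selected for a difference. With the trend kept, adjustment over the 11193 tests implied took the limma adjusted p of CHRNA10 from 0.0027 to 0.00721. That adjustment was not made with the trend removed, so whether the pass would hold under it is open. The mouse sequence stands in for the human one here, and the removal also takes out any true difference that runs with GC content.

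**Figure D3:**
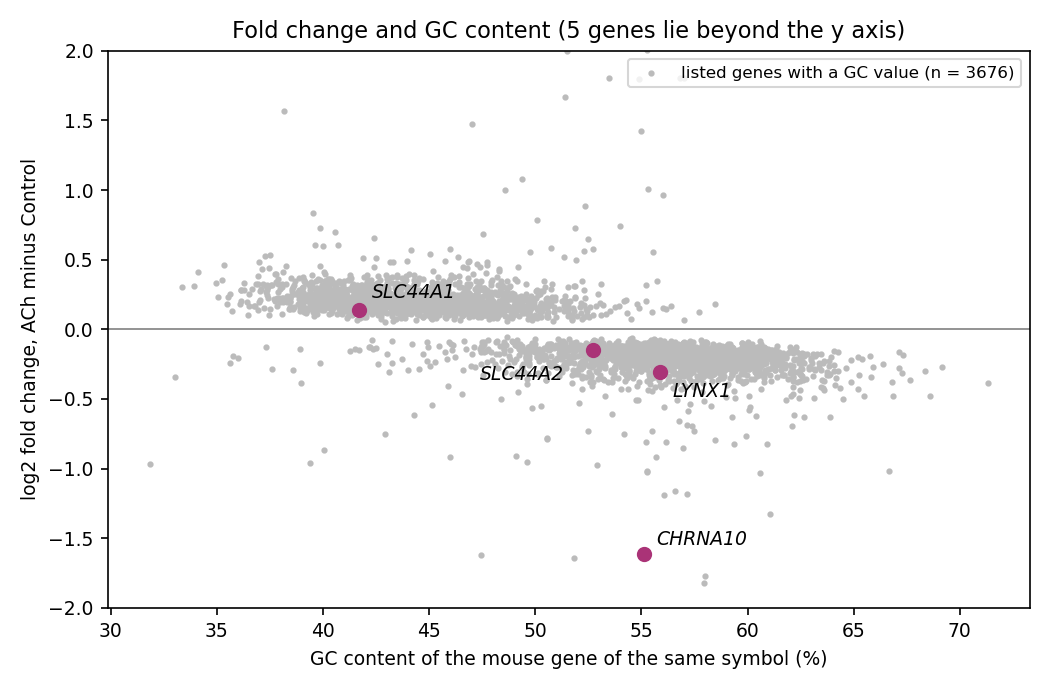
Each grey point is a listed gene, with mouse GC content for that symbol on the x axis (percent) and the log2 fold change of ACh over Control on the y axis; the 4 genes are marked. SLC44A1 lies among low-GC genes, which were mostly higher in ACh, LYNX1 and SLC44A2 lie inside the band of lower genes, and CHRNA10 lies far below that band at -1.61; 5 genes fall beyond the axis.

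**Figure D4:**
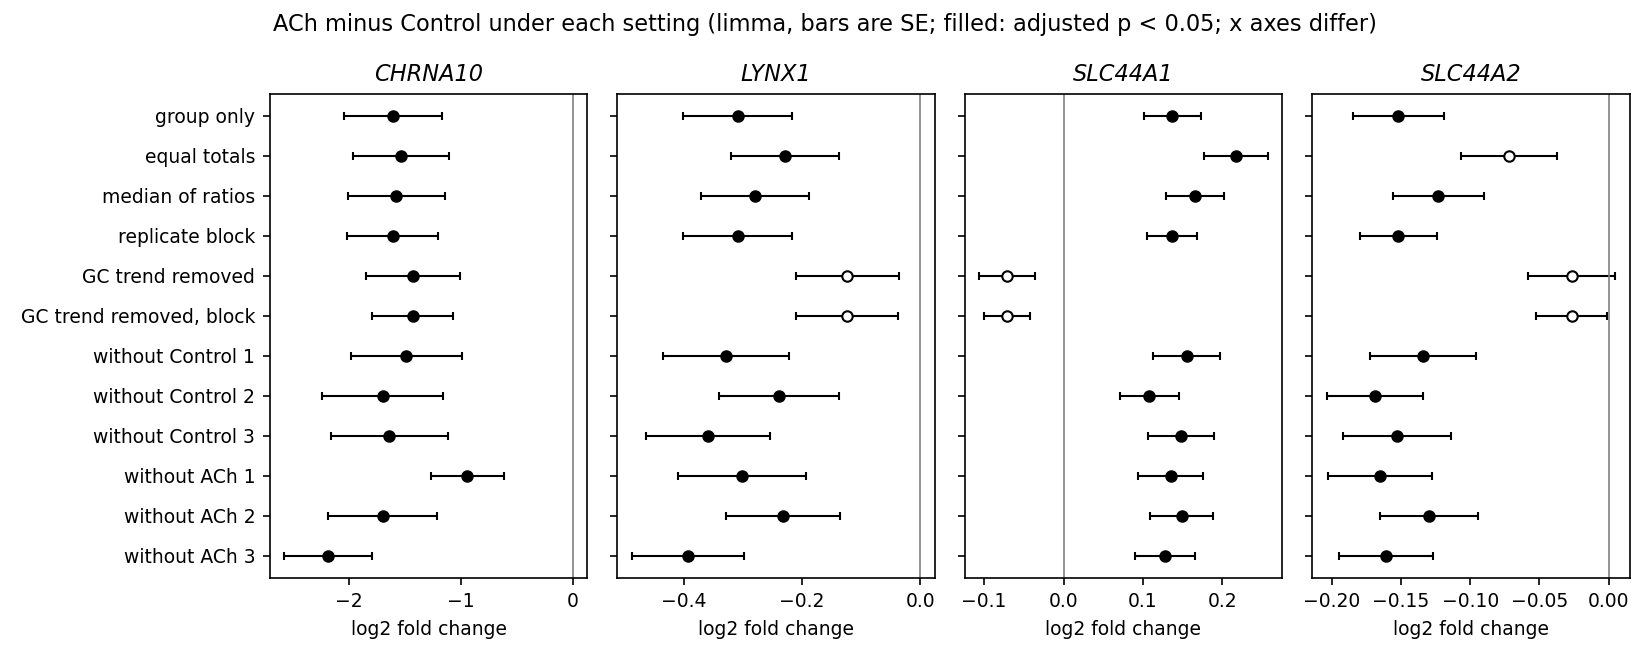
Log2 fold change (x axis, bars are the limma standard error) of the 4 genes under other scalings, with a replicate block, with the GC trend removed and without each library, filled where the limma adjusted p was under 0.05 and open where it was not; the x axes differ between panels. Leaving out 1 library turned no direction, removal of the GC trend turned that of SLC44A1, and CHRNA10 went to -0.943 when ACh replicate 1 was left out.

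The wider cholinergic machinery was largely outside the table. Of 16 nicotinic subunit genes CHRNA10 alone was listed. None of 5 muscarinic receptor genes, none of 7 genes for the synthesis, storage or breakdown of acetylcholine, and none of 17 other subunits of the same channel superfamily was listed. These genes have no value here, so neither their expression nor a change can be read. Over 12 lists of receptor, choline and signalling genes, which include the 4 genes above, 51 of 183 genes were listed, 17 rose, 19 fell and 15 were not called. Their median log2 fold change was -0.10, as over all listed genes (-0.10), and 28.8% of all listed genes rose and 35% fell.

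Among 9 genes of choline uptake 3 were listed, all of the SLC44 family. Beside SLC44A1 and SLC44A2, the less studied SLC44A5 went from 379 ± 15.7 to 439 ± 21.7 (SD, n = 3 each). Its log2 fold change of 0.21 passed limma (adjusted p = 0.0124) but not the adjusted p in the authors' deposited table (0.119). Without ACh replicate 2 it did not pass limma either (0.169, limma adjusted p = 0.0606). The summed count of the 3 transporters ran from 9643 to 10175 in Control and from 9339 to 9655 in ACh, with an overlap between the groups.

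The Ly6 and uPAR family, to which LYNX1 belongs, was mostly lower under the deposited scaling and under both other scalings tried. Of 17 genes 6 were listed, 5 fell and 1 rose, and the median log2 fold change was -0.26. Of all listed genes 35% fell and 28.8% rose. The median GC content of the 5 with a GC value was 55.4%, in the second highest quintile, of which 3.13% were higher in ACh. LY6D, a marker of squamous and other epithelia, lies 7.07 kb from LYNX1 and fell from 263 ± 15.1 to 195 ± 14.3 (SD, n = 3 each), or -0.43 on the log2 scale. LY6E, an interferon-responsive member, fell from 13334 ± 238 to 10707 ± 118 (SD, n = 3 each), by 0.32 on the log2 scale. LYPD3, a surface protein of squamous epithelia, fell by 0.21 and LY6K, a cancer-testis antigen, by 0.20. The summed count of the 6 genes, most of it LY6E, ran from 21199 to 21846 over the Control libraries and from 18070 to 18473 over the ACh libraries, with no overlap. Taken singly, 93% of the listed genes had no overlap either. CD59, which protects cells from complement, rose by 0.31 from 1589 ± 94.6 to 1973 ± 16.6 (SD, n = 3 each). These genes share a protein fold, and not all of them act on nicotinic receptors. With the GC trend removed LY6E alone kept its call among the 5 with a GC value (-0.13, limma adjusted p = 0.00213), the other 4 had values from -0.27 to -0.01, and CD59 had no GC value.

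Genes that help to assemble or cluster acetylcholine receptors went both ways. Of 6 listed among 13, TMX3, a disulfide isomerase of the endoplasmic reticulum, rose by 0.36 and CANX, the chaperone calnexin, by 0.16. AGRN, which encodes agrin, the organiser of receptor clusters at the nerve-muscle junction, fell by 0.25 on the log2 scale, from 23784 ± 378 to 19989 ± 977 (SD, n = 3 each). The other 3 were not called.

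Genes that use choline were divided as well. Of 7 listed among 23, 2 rose, 3 fell and 2 were not called. GPCPD1, an enzyme that releases choline from glycerophosphocholine, rose by 0.36 and LPCAT2, an acyltransferase that remakes phosphatidylcholine, by 0.22. PNPLA6, a phospholipase acting on phosphatidylcholine, fell by 0.31 and PEMT, which makes phosphatidylcholine by methylation, by 0.19. PEMT lost its call with equal totals (-0.106, limma adjusted p = 0.06).

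Downstream of muscarinic receptors, 5 of 20 genes of the Gq arm were listed, of which 1 rose and 3 fell. PRKCA, a protein kinase C, rose by 0.17. GRK2, a kinase that desensitises G protein-coupled receptors, and PLCB3, a phospholipase C, each fell by 0.20. Of 4 listed genes of the Gi arm among 13, GNAI3, an inhibitory G protein subunit, rose by 0.14 and 3 were not called. Of 9 listed among 18 kinases and their partners downstream of nicotinic receptors, 5 rose and 2 fell, with PIK3CA up by 0.23 and MAP2K2 and AKT1 down by 0.27 and 0.19. Among 10 listed of 25 calcium-handling genes 4 rose and 4 fell. CAMK2D, a calcium-dependent kinase, and ATP2C1, a Golgi calcium pump, rose by 0.25 and 0.18, and ORAI2, a store-operated channel subunit, and CALM3, a calmodulin gene, fell by 0.25 and 0.20.

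Removal of the GC trend took nearly all of these calls away. Of the 36 calls over the 12 lists 1 was left, LY6E, among 50 genes with a GC value. CD59, called before, has no GC value, so its call was not put to this removal. The share called among all genes with such a value fell to 9.6%, as given above. Before the removal it lay between 59.2% and 74.6% in each quintile of GC content.

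**Figure D5:**
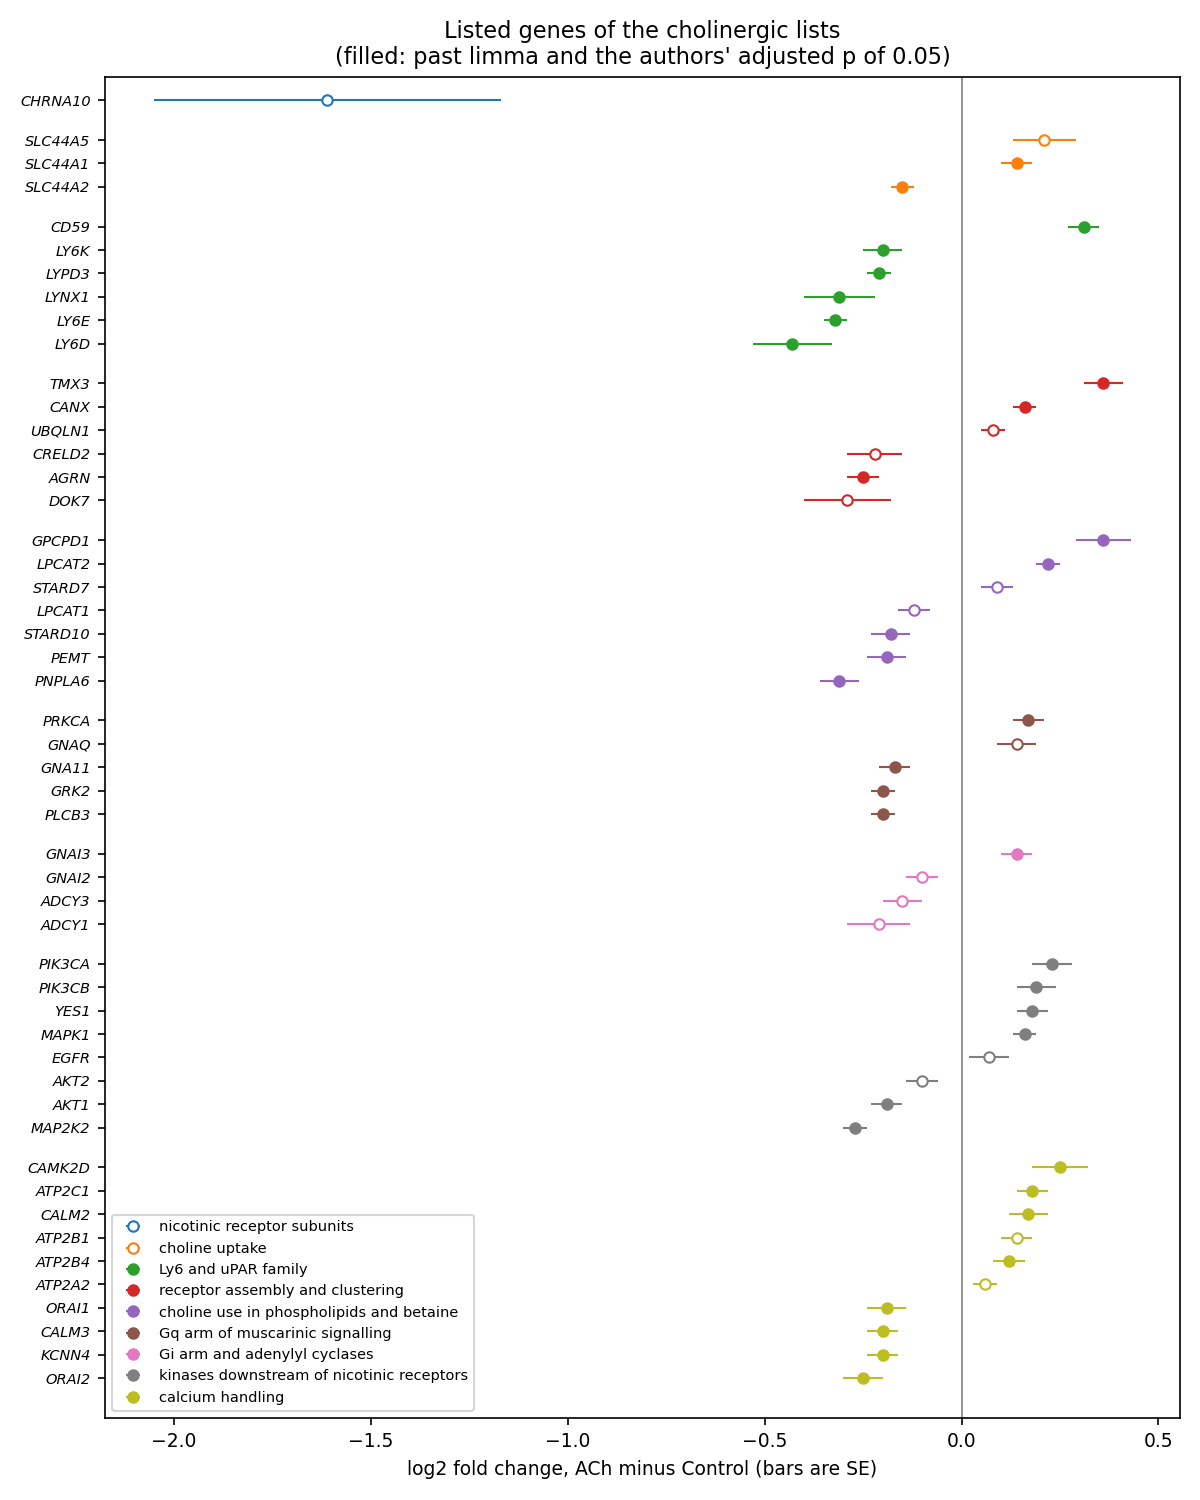
Log2 fold change of ACh over Control (x axis, bars are the limma standard error) for the listed genes of the cholinergic lists that are reported here, coloured by list and filled where the gene was called. Of the Ly6 and uPAR family 5 genes lie below 0 and CD59 above it, and the other lists with more than 1 listed gene hold genes on both sides of 0.

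For each of the 4 genes the 3 listed genes with the most similar pattern were found by the root mean square difference of their centred log2 values over the 6 libraries. For SLC44A1 these were CDC5L, a splicing factor, RALA, a small GTPase, and PTPN11, a tyrosine phosphatase, with differences of 0.0103 to 0.0127. For SLC44A2 they included GUSB, the lysosomal beta-glucuronidase (0.0147), and the elongation factor gene ELOF1 (0.0174). For LYNX1 they were ARVCF, a catenin, RPL37, a ribosomal protein, and ST6GALNAC4, a sialyltransferase (0.0423 to 0.0514). For CHRNA10 they were PAMR1, the antisense transcript AC243773.1 and the pseudogene PMS2P2 (0.446 to 0.509), whose Control means ran from 8.63 to 23.3. Of the genes named here PTPN11, ELOF1, ARVCF and RPL37 were called. These differences were not scaled to the spread of each gene, which is widest for CHRNA10, so they do not compare the closeness of match between the 4 genes. In a table selected for a group difference many genes share such a pattern.

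The libraries and the label of the cells bear on all of this. Library sums over the listed genes ran from 10519515 to 11468978 normalised counts, which is not the sequencing depth, and the depth is unknown. In steps the sums were 11258647 to 14453391 in Control and 9420144 to 10036897 in ACh, so every ACh library held fewer. Of 14 squamous epithelial markers 7 were listed, TP63, SOX2 and KRT15 among them (KRT5 and KRT14 were not listed). Of these 3 rose, TP63 by 0.23 and ITGA6 by 0.15 among them, 3 fell, SOX2 by 0.20 among them, and 1 was not called. They summed to between 58886 and 61139 in Control and between 58264 and 59402 in ACh, most of it ITGB4 (means of 36058 and 33885). Of 14 markers of other cell types only COL1A1 and LAPTM5 were listed, neither called, with sums of 167 to 211 in Control and 164 to 187 in ACh. Within that sum COL1A1, a fibroblast collagen, went from 177 ± 26.5 to 139 ± 7.23 and LAPTM5, a leukocyte marker, from 19.6 ± 1.83 to 39.6 ± 8.56 (SD, n = 3 each). The LAPTM5 libraries did not overlap between groups (log2 fold change 0.96, limma adjusted p = 0.00138). LAPTM5, like CHRNA10, is among the 234 genes whose deposited adjusted p may stand for a missing value. Mitochondrially encoded genes, a sign of library or RNA quality, were lower in ACh for all 10 listed of 13. Of the 10, 7 were called, against 35% of all listed genes called lower. Their sum ran from 807534 to 927805 in Control and from 699304 to 761071 in ACh. By the GC content of the mouse transcripts, with a median of 36.0%, they went against the GC trend. Their median log2 fold change was -0.24. With the GC trend removed the median was -0.49 over the 9 with a GC value. Both the place in the trend and the size of this value rest on the mouse sequence. The GC content of the human genes was not read. Their part in the values of the 4 genes was not tested. In bulk samples, fewer cells of a type and less RNA per cell cannot be told apart.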

How the data were processed

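The members and lists were chosen with earlier results of these data known. Per the labels' protocols, SMARTER mRNA-Seq libraries were prepared from 1 ug of total RNA. The organism label reads mouse, and the submitters' processing notes list Bowtie 0.12.2 with builds mm8 and mm10. Nonetheless 4183 of the 4195 gene IDs are human. For the human build and the counter, nothing is given in the sources used here. Each deposited column holds a signal: normalised read counts, whole multiples of 1 step per library, as read from the values. A division by 1 factor per library is not stated by the authors. Log2 fold changes and p-values in the table come from a test by the authors, per the file headers. Their adjusted p-values imply 11193 tests.

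Log2(value + 1) was fitted in R 4.3.3 by the trend method of limma 3.58.1 on all 6 libraries, with 1 term for group. Adjusted p-values are Benjamini-Hochberg values over the 4195 listed genes, read at 0.05. With the GC trend removed they are over the 3676 genes with a GC value. Without the lowest quartile by mean they are over 3146 genes. Because the genes were selected for a difference, limma alone calls 99.6% of them, and it is no independent support for the authors' call. The design had allowed for a count test, and none was run. The Control libraries hold only 81 to 93 values at or under 20 steps, fewer than a preset check of the unit asked for. The fit was tested on simulated data. For GC content, the longest coding transcript with that symbol in mouse GENCODE M21 was used, found for 87.6% of genes, and the trend was removed per library by local regression with a span of 0.3. The named genes are the 4 genes, all listed genes of the receptor, acetylcholine, choline uptake and Ly6 lists, up to 2 called genes per direction of each other list, the 3 nearest in pattern to each of the 4 genes, and NUP98. Some genes under this rule are not reported here. Python 3.11.15, pandas 2.3.3, NumPy 2.4.6 and Matplotlib 3.10.9 were used.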

Additional observations from a re-analysis of the deposited data

How the results depend on the processing

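The number of listed genes called (2677) became 4178 by limma alone, and it was 2647 to 2668 when 1 library was left out. Over the 3676 genes with a GC value it was 353 with the GC trend removed and 483 with that removal and a replicate block. With equal totals 1207 of 2197 calls were higher, against 1207 of 2677. The count over the 12 lists (36) was 36 without any 1 library. Over the 50 genes with a GC value, which leave out CD59, it was 1 with the GC trend removed and 3 with the block added. With equal totals the count over the 12 lists was 17 higher and 14 lower, against 17 and 19. With the GC trend removed, with or without the block, SLC44A1 stood at -0.0711, LYNX1 at -0.124, and SLC44A2 at -0.0266. The ACh minus Control difference in the mean log2 ratio of SLC44A1 to SLC44A2, taken with no block, was -0.0445. SLC44A2 was -0.072 with equal totals. CHRNA10 passed by limma alone (-1.61). Without 1 library, the log2 fold changes ran from -2.19 to -0.943 for CHRNA10 and -0.393 to -0.232 for LYNX1. They ran from 0.108 to 0.155 for SLC44A1 and -0.169 to -0.13 for SLC44A2. The difference in the log2 ratio then ran from 0.277 to 0.302. The filter on the lowest quartile took out CHRNA10 and LYNX1.

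Of the 36 other named genes 33 had a GC value. With that trend removed 15 lost their call in the same direction and 11 changed sign. Among the 11, CDC5L, NUP98 and RALA had not been called before. LY6E (-0.135), PTPN11 (0.215) and RPL37 (-0.384) kept their call. With the block added LY6D (-0.267) and PNPLA6 (-0.118) were called, and the same 11 changed sign: AKT1 to 0.0285, ATP2C1 to -0.0353, CALM3 to 0.00157, CANX to -0.0434, CDC5L to -0.0128, ELOF1 to 0.0065, GNAI3 to -0.0642, GRK2 to 0.00472, NUP98 to -0.0359, PRKCA to -0.00156 and RALA to -0.0647. The cause was not tested. With equal totals PEMT and ELOF1 lost their call. The replicate block alone left 2677 and 36 calls and changed no call of the genes named. The labels do not say whether the numbers pair the libraries. Across genes, same-numbered libraries of the 2 groups correlated at 0.0471 to 0.0821 and the other pairs at -0.0686 to 0.0171, all of them weak. Each library correlated best with its own number, a hint from the data and not the design. The count tests by edgeR and DESeq2 were not run. GC removal moved the median of all listed genes from -0.0976 to 0.0024. Depth is unknown.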
